A study of Mus musculus with 24 samples.

Results

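Regions of accessible chromatin that separated week 6 (W6) from week 12 (W12) of SOX9 induction in adult epidermal stem cells (EpdSCs) were collected by merging the W6 and W12 peak lists wherever peaks shared at least 1 bp. The merge gave 85240 regions, of 134385 in the union of all 12 peak lists of the series and 98240 in the union of its 5 in vivo lists. Of these regions, 60430 held a peak in both lists, 14481 in the W6 list alone and 10329 in the W12 list alone. ATAC-seq was used, an assay whose transposase cuts and tags loosely packed DNA, so that fragments pile up as peaks over promoters and enhancers.

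The cells of both groups came from male CD1 mice that carried K14rtTA and TRE-myc-Sox9, and both groups had received doxycycline (DOX), so that neither is a control without the transgene. K14rtTA is the DOX-dependent activator under the keratin 14 promoter, which confines the myc-tagged Sox9 transgene to stratified epithelium. The W6 mice were on DOX from postnatal day 21 to day 63 (P63). The W12 cells came from back skin that had been grafted at birth onto immunocompromised Nude female hosts and induced for 12 weeks once healed, so that week, age at induction and grafting cannot be told apart. EpdSCs were sorted from the back skin of both groups as CD31/45/117/140a-negative, CD49f-high, CD34-negative and Ly6A-high cells, and each replicate pooled several animals. There were 2 replicates in each group, but each deposited list was called on the 2 replicates together, so no comparison here has a replicate error or a test across replicates. The intervals given are 95% Wilson intervals and cover counting error only. A lower peak in such a pool can come from fewer cells with the site accessible or from less accessibility in each cell, and these cannot be told apart.

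SOX9 is a transcription factor with an HMG box that bends DNA at short SOX sequences, and it is known as a factor of hair follicle stem cells (HFSCs) and the outer root sheath. EpdSCs of the interfollicular epidermis normally lack it, and depend instead on regulators such as p63, GATA3 and AP1, the dimer of FOS and JUN family proteins that binds many skin enhancers. Basal cell carcinomas, which express SOX9 and carry active hedgehog signalling, are the tumour type to which prolonged SOX9 expression in the epidermis has been related, and the late weeks ask what chromatin looks like when SOX9 has been on for long.

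Sequences at the centre of the regions that differ most between the lists show what was compared. They are 200 bp stretches of GRCm38, plus strand, with matches on either strand in capitals. The letters searched were ACAATGG or ACAATAG for SOX factors, TGACTCA or TGAGTCA for AP1, AGATAA for factors of the GATA family and TGTGGT for RUNX factors. The 3 highest-scoring regions of the W6 list alone that lay over 1 kb from a transcription start site (TSS) were centred on the following sequences, the first near Pip, the second in an intron of Glra2 and the third between genes with Gsc as the nearest protein-coding gene.
chr6:41845897-41846096: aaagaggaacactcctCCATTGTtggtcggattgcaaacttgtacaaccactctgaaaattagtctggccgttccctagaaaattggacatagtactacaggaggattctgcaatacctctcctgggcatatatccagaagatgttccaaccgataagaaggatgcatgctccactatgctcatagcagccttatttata
chrX:165168437-165168636: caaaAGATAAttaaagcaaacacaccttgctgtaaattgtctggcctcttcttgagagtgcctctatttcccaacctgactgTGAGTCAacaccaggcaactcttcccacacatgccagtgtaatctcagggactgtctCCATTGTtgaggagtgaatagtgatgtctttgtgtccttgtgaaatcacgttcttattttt
chr12:104562136-104562335: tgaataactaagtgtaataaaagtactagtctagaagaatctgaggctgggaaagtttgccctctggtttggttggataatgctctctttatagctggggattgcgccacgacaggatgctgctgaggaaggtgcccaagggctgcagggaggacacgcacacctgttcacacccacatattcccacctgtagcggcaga

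The first and the second of these each held 1 SOX match, and the second also held 1 AP1 and 1 GATA match. The region near Pip, which encodes a secreted glycoprotein of exocrine glands, had a score of 21.6 at W6 and 14.7 in the W2 list and no peak in the D0, W1 or culture lists. The region in Glra2, a glycine receptor subunit, had a score of 21.3 at W6 and 17.4 at W2, again with no peak elsewhere.

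Regions of the W12 list alone are shown by the highest-scoring one, in an intron of Dennd1a with the TSS of Crb2 as the nearest. A further one lay 41500 bp from the TSS of Pdia4. The last were the 2 highest-scoring ones with an AP1 match, which were chosen after their values were seen. They lay in an intron of a noncoding gene, 57373 bp from the TSS of Naa11, and in an intron of Aff3.
chr2:37818333-37818532: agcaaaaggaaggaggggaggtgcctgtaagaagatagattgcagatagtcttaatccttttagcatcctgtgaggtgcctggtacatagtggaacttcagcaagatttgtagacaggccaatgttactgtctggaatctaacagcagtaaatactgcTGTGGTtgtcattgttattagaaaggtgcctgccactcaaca
chr6:47771830-47772029: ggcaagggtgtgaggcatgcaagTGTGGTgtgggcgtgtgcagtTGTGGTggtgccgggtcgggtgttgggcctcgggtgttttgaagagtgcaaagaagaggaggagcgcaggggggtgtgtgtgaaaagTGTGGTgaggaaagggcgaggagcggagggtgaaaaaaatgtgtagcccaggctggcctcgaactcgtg
chr5:97334906-97335105: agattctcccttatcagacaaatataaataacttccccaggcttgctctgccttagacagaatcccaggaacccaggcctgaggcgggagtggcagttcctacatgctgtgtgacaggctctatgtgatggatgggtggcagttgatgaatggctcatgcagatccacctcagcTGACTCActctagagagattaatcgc
chr1:38547740-38547939: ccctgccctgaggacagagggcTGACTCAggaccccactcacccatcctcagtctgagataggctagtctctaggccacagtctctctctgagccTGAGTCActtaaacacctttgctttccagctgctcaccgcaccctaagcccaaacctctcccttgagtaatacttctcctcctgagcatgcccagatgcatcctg

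The sequence in Dennd1a held 1 RUNX match and that near Pdia4 held 3, while those near Naa11 and in Aff3 held 1 and 2 AP1 matches. The region near Naa11 had a score of 21.6 at W12, and scores of 66.9 at D0, 50.2 at W1 and 5.85 at W2. The region in Aff3 had a score of 21.3 at W12, 8.67 at D0, 11.8 at W1 and 4.42 at W2. Both thus had a peak in every earlier list and none at W6. A further W12-only region, at chr9:3001969-3002311, ranked second with a score of 34.4, but the 50 bp at its centre occurred 4 times in the assembly, so its reads cannot be placed uniquely and its sequence is not shown.

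The shared regions with the largest score ratio each way, among those with a score of at least 10 in either list and over 1 kb from a TSS, were a region in an intron of Mtor, 4179 bp from the TSS of Angptl7, higher at W12, and a region 19038 bp from the TSS of Morf4l1, higher at W6.
chr4:148504539-148504738: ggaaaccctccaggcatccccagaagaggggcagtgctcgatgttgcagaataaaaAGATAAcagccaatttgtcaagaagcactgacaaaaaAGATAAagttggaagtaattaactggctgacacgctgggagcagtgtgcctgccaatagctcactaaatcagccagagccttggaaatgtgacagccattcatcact
chr9:90133712-90133911: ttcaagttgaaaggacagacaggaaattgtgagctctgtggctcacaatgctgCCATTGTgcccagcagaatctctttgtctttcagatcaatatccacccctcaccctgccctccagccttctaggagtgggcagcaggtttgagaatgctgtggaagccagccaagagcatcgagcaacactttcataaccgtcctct

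The first held 2 GATA matches and no SOX match, and its score was 3.26 at W6 and 24.7 at W12. The second held 1 SOX match, and its score was 27.3 at W6 and 3.20 at W12.

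Most of the accessible landscape was common to both weeks. Regions in both lists made up 70.9% of the union (70.6 to 71.2), W6-only regions 17.0% and W12-only regions 12.1%. Of the 75956 W6 peaks, 80.9% (80.7 to 81.2) overlapped a W12 peak, and of the 71503 W12 peaks, 85.6% (85.3 to 85.8) overlapped a W6 peak. No other pair of in vivo lists apart from D0 and W1, with 75% of their union in both, shared more: W2 and W6 shared 67.0%, W2 and W12 65.2%, D0 and W12 59.1%, and D0 and W6 53.4%. The union of D0 and W12 was therefore shared to a greater extent than that of D0 and W6, and the intervals of these 2 shares, 58.8 to 59.4 and 53.1 to 53.7, did not overlap.

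The excess of W6-only over W12-only regions depended on how the lists were cut. The score in the lists is the peak caller's −log10 p scaled to its total over the list, with peaks under a score of 3 left out, so it is a rank of evidence within a list and not a height of signal. The lowest −log10 q that passed was 5.74 in the W6 list and 10.1 in the W12 list, so the W6 list reached down to weaker evidence. With both lists cut at the higher of these 2 values, W6-only regions numbered 5225 and W12-only regions 18695. With the lists cut to equal length by score, they numbered 11789 and 11935.

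Exclusive regions were mostly weak peaks. The median score was 4.26 (interquartile range 3.58 to 5.33) in W6-only regions and 4.0 (3.39 to 5.27) in W12-only regions, against 10.7 at W6 and 10.1 at W12 in shared regions. Scores under 5 were found in 70.3% of W6-only and 71.1% of W12-only regions, and in 16.2% and 19.4% of shared regions at W6 and W12. Only 283 W6-only and 287 W12-only regions reached a score of 10. Exclusive regions were also narrower, with median widths of 303 bp for W6-only, 335 bp for W12-only and 575 bp for shared regions.

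**Figure D1:**
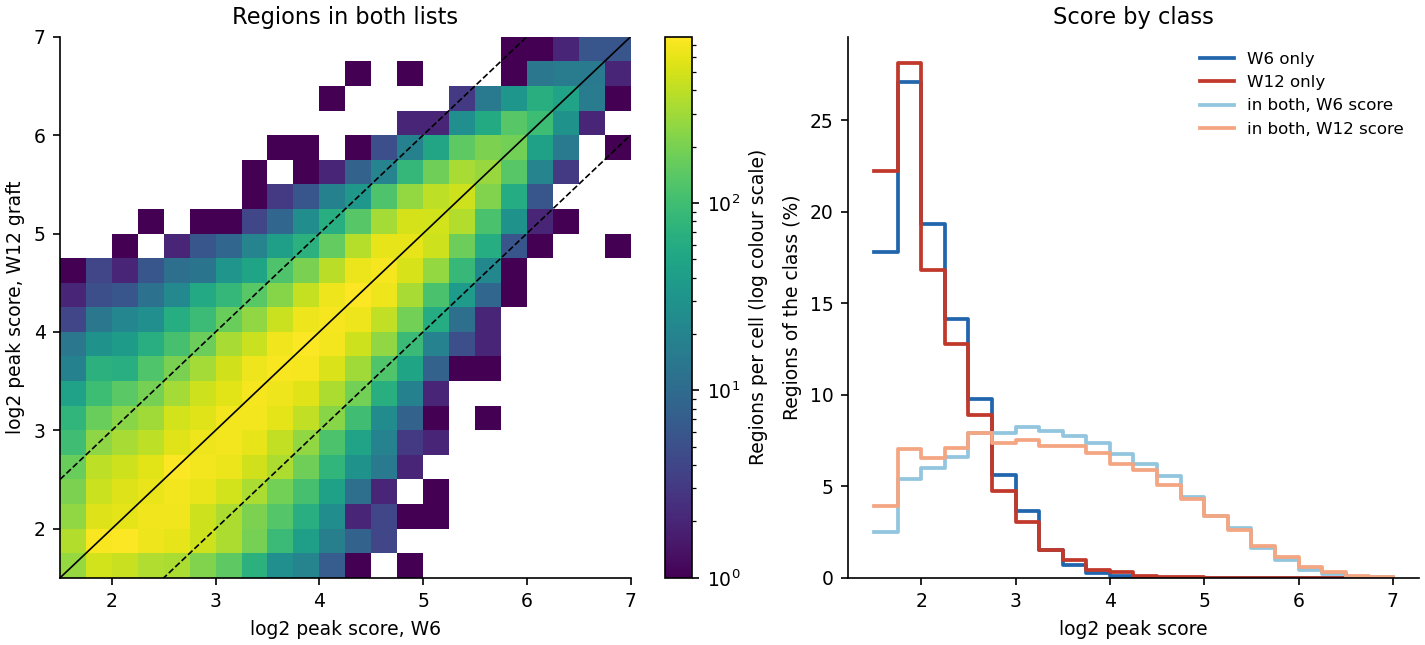
The left panel plots regions in both lists by log2 peak score at W6 (x axis) and in the W12 graft (y axis), coloured by the number of regions on a log scale, with a solid line at equal scores and dashed lines at a 2-fold difference. The right panel gives the share of regions (%) by log2 score per class, in which exclusive regions crowd at the low end above the minimum score of 3, with medians of 4.26 and 4.0.

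Among the 60430 shared regions, the log2 ratio of the W12 to the W6 score had a median of −0.05 and an SD of 0.62 over regions. The score was at least 2-fold higher at W12 in 2565 regions, 4.24% of shared regions, and at least 2-fold higher at W6 in 3943 regions, 6.52%. The fold enrichment over background that the peak caller gives moved in the same direction in 2559 of the 2565 and in 3939 of the 3943 regions. Both measures describe the same peaks, with a Pearson r of 0.94 between their log2 ratios, so this is not independent support. The next counts refer to fold enrichment. Its range was narrower, so that it differed 2-fold in only 289 regions in favour of W12 and 163 in favour of W6. Division of the scores by each list's median over shared regions gave 3183 and 3131 regions. Which week had more 2-fold differences thus depended on the scale, while the 10 regions named for their ratio had the same direction on both measures.

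The regions that differed lay away from promoters. A centre within 1 kb of a TSS was found for 12.2% (11.7 to 12.7) of W6-only and 8.21% (7.70 to 8.75) of W12-only regions, against 25.2% (24.8 to 25.5) of shared regions. Introns held 51.3% of W12-only and 43.7% of W6-only regions, while regions between genes made up 36.7% and 40.2%. The median distance to the nearest TSS was 12797 bp for W6-only, 12320 bp for W12-only and 8348 bp for shared regions.

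Regions of the 2 weeks had different earlier histories. Of the W12-only regions, 36.4% (35.5 to 37.3) had a peak at D0, before induction, and 35.3% (34.3 to 36.2) at W1, but only 22.2% (21.4 to 23.0) at W2. Of the W6-only regions, 16.1% (15.5 to 16.7) had a peak at D0 and 21.4% (20.7 to 22.0) at W1, and 33.9% (33.1 to 34.7) at W2. With scores of at least 5 required in both lists these shares were over 1.5 times as high, in the same order. They were 33.3% (D0) and 61.9% (W2) of W6-only and 55.6% and 44.2% of W12-only regions. Peaks under 5 were removed before merging, so shared regions with such a peak in 1 list became exclusive. The cut gave 10618 W6-only and 7303 W12-only regions, whereas 4305 and 2990 regions of the original classes had scores of at least 5. Thus W12-only regions were found more often in the lists at the start of induction, and W6-only regions more often in the W2 list. Shared regions were found at D0 in 72.5%, at W1 in 69.0% and at W2 in 83.1%.

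The combinations of earlier lists showed the same contrast region by region. A peak at D0 and W1 with none at W2 was found for 1549 W12-only regions (15.0%, 14.3 to 15.7) and for 579 W6-only regions (4.0%, 3.69 to 4.33). A peak at W2 with none at D0 and W1 was found for 2857 W6-only regions (19.7%, 19.1 to 20.4) and 559 W12-only regions (5.41%, 4.99 to 5.87). Read from the earlier lists, regions that had a peak at D0 and W1 and lost it by W2 were W12-only in 38.6% and W6-only in 14.4%, out of 4015 such regions in the union. Regions that first had a peak at W2 were W12-only in 4.96% and W6-only in 25.3%, out of 11279, and 69.7% of them were shared. The largest group of exclusive regions had no peak in any of the 3 earlier lists, 54.9% of W6-only and 51.0% of W12-only regions.

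**Figure D2:**
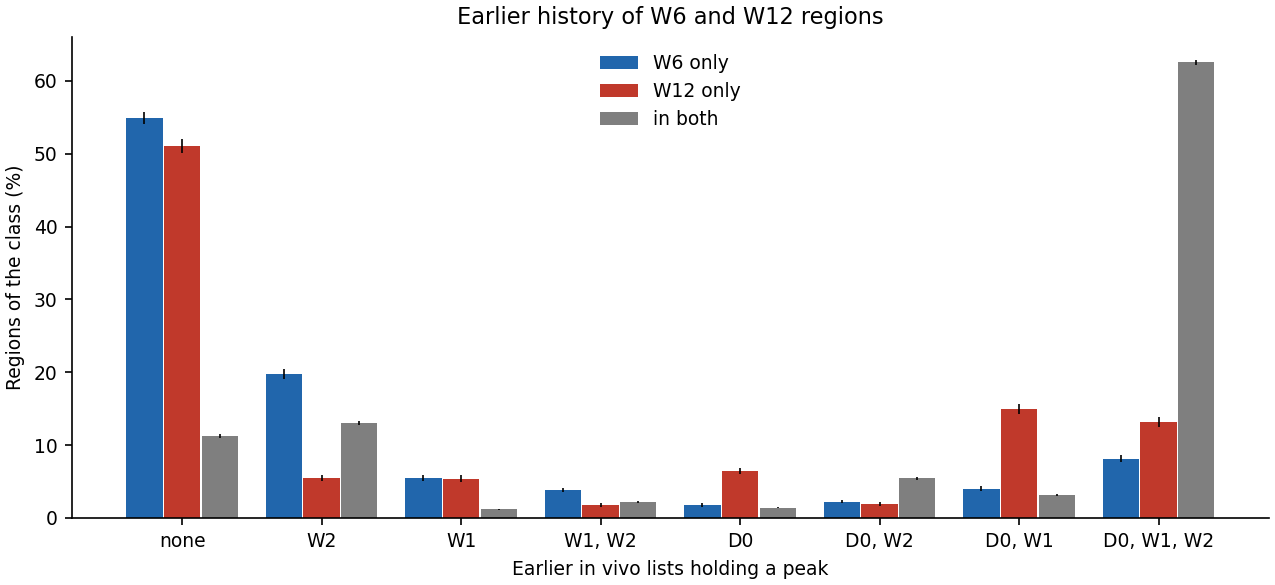
Share of regions (%, y axis) by the set of earlier in vivo lists that held a peak (x axis), for W6-only, W12-only and shared regions, with 95% Wilson intervals. W12-only regions exceed W6-only regions where D0 and W1 held a peak and W2 did not (15.0% against 4.0%), and W6-only regions exceed W12-only regions where W2 alone did (19.7% against 5.41%).

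Shared regions with a changed score showed the same order between the weeks. A D0 peak was found in 77.8% (76.1 to 79.3) of the 2565 regions higher at W12 and in 44.3% (42.7 to 45.8) of the 3943 regions higher at W6. A W2 peak was found in 71.2% (69.4 to 72.9) of the first and 83.2% (82.0 to 84.3) of the second. Over all shared regions, a D0 peak was found in 72.5% and a W2 peak in 83.1%. Regions higher at W6 thus had W2 peaks as often as all shared regions, and those higher at W12 less often. For D0, regions higher at W12 lay somewhat above all shared regions, and those higher at W6 far below. Regions with a peak at W2 but neither D0 nor W1 made up 37.5% of those higher at W6 and 5.22% of those higher at W12.

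The culture lists, which come from cultured keratinocytes and were not used to define the classes, were read over the same regions. W12-only regions had a peak in 32.8% (31.9 to 33.7) without DOX and in 22.5% (21.7 to 23.4) with wild-type SOX9. With SOX9 lacking its DNA-binding HMG box (ΔHMG) the share was 31.5%, with SOX9 lacking its transactivation domain (ΔTA) 36.1%, and with AFOS, a dominant-negative inhibitor of AP1, 34.7%. The lowest share, 17.6% (16.8 to 18.3), was in cells with SOX9 and AFOS together, and with SOX9 and ARID1a, a subunit of the SWI/SNF remodeller, it was 30.0%. W6-only regions ran from 15.3% with ΔHMG to 21.8% with SOX9 and AFOS, with 18.1% (17.4 to 18.7) without DOX, 20.6% (19.98 to 21.3) with wild-type SOX9 and 16.6% (16.04 to 17.3) with SOX9 and ARID1a. Relative to no DOX, the W6-only share was thus higher with wild-type SOX9 and lower with SOX9 and ARID1a. The W12-only share was lower with both. Such shares also depend on how many peaks a culture list holds. The only no-DOX list is labelled as that of the wild-type SOX9 cells. For the other cells, differences between cell lines and effects of DOX cannot be told apart. Shared regions had a peak in 62.7% without DOX, 59.0% with SOX9, 58.9% with SOX9 and ARID1a and 54.4% with SOX9 and AFOS, so shares of shared regions also were lower with SOX9 than without it. In regions higher at W12, 61.8% had a peak without DOX, 45.3% with SOX9 and 33.1% with SOX9 and AFOS. In those higher at W6, the shares were 33.9%, 40.9% and 39.2%.

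**Figure D3:**
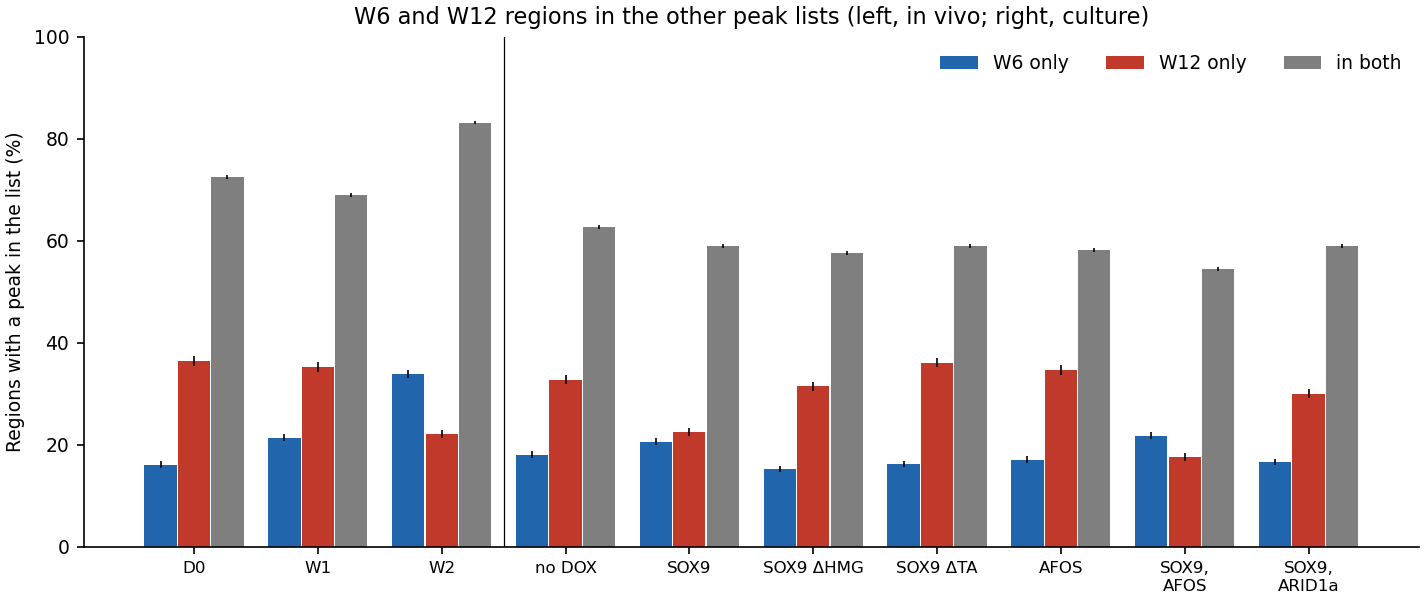
Share of W6-only, W12-only and shared regions (%, y axis) that held a peak in each of the other 10 lists (x axis), with 95% Wilson intervals, in vivo lists on the left and culture lists on the right. W12-only regions stand above W6-only regions at D0 (36.4% against 16.1%) and below them at W2 and with SOX9 and AFOS (17.6% against 21.8%).

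Sequence content also separated the classes. Each region's central 200 bp were scanned on both strands, and 85201 regions with sequence entered. No word of one factor was contained in a word of another, although matches of different factors could overlap on the DNA. AP1 matches were found in 32.8% (31.9 to 33.7) of W12-only regions, in 13.9% (13.4 to 14.5) of W6-only regions and in 21.9% of all regions. SOX matches were found in 8.64% (8.19 to 9.10) of W6-only regions, in 4.05% (3.69 to 4.45) of W12-only regions and in 5.59% of all regions. A match is a description of the letters and not evidence of a bound factor.

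GATA matches were more frequent in W12-only regions (11.6%, 11 to 12.2) than in W6-only regions (8.89%, 8.44 to 9.37), with 8.51% in all regions. C/EBP matches (TTGCNNAA) showed the opposite order, with 12.7% (12.2 to 13.3) in W6-only, 8.62% (8.09 to 9.17) in W12-only and 9.94% in all regions. KLF matches (GGGTGTGG or GGGCGTGG) were found in 6.53% of W6-only and 4.67% of W12-only regions, and in 6.30% of all regions. RUNX matches differed little, with 17.7% in W12-only, 16.0% in W6-only and 15.5% in all regions. For TEAD (ACATTCC) the shares were 4.40% and 3.97%, for TCF/LEF (ATCAAAG) 3.06% and 3.01%, and for forkhead (GTAAACA) 3.09% and 2.76% in W12-only and W6-only regions, against 3.92%, 2.75% and 2.79% of all regions. CTCF matches were found in 2.78% and 3.12%, against 2.45% of all regions.

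The AP1 and SOX contrasts did not rest on the weakest peaks. In W12-only regions with a score of 10 or more the AP1 share was 37.7% and the SOX share 1.76%, out of 284 regions. In W6-only regions with a score of 10 or more the AP1 share was 16.3% and the SOX share 18%, out of 283. Among shared regions, those higher at W12 held an AP1 match in 39.1% (37.2 to 41.0) and a SOX match in 3.48%, and those higher at W6 in 15.6% (14.5 to 16.8) and 10.6% (9.66 to 11.6). With promoter regions left out, AP1 shares were 33.8% in W12-only and 14.9% in W6-only regions, and SOX shares 4.22% and 9.23%.

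History and sequence varied together within the classes. W12-only regions with no earlier peak held an AP1 match in 41.6% (40.2 to 42.9) and a GATA match in 8.77%. W12-only regions with a peak at D0, W1 and W2 held an AP1 match in 17.6% and a GATA match in 20.4% (18.3 to 22.6). Those with a peak at D0 and W1 but not W2 stood between, with 25.2% for AP1 and 15.0% for GATA. Within the W12-only class, regions without an earlier peak thus had the higher AP1 share and regions with a peak from the start the higher GATA share. The AP1 order was not particular to that class. Regions without an earlier peak that were shared by W6 and W12 had an AP1 share of 39.9%. Shared regions with a peak at D0, W1 and W2 had one of 16.9%. For W6-only regions these AP1 shares were 18.9% and 5.60%. The GATA shares in the same order were 7.49% and 12.6% in W6-only regions, and 7.31% and 7.87% in shared regions. Among W6-only regions, a peak at W2 but not D0 or W1 went with a SOX share of 12.6% (11.4 to 13.9) and an AP1 share of 9.73%. Shared regions of the same history had a SOX share of 12.2% and an AP1 share of 27%.

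**Figure D4:**
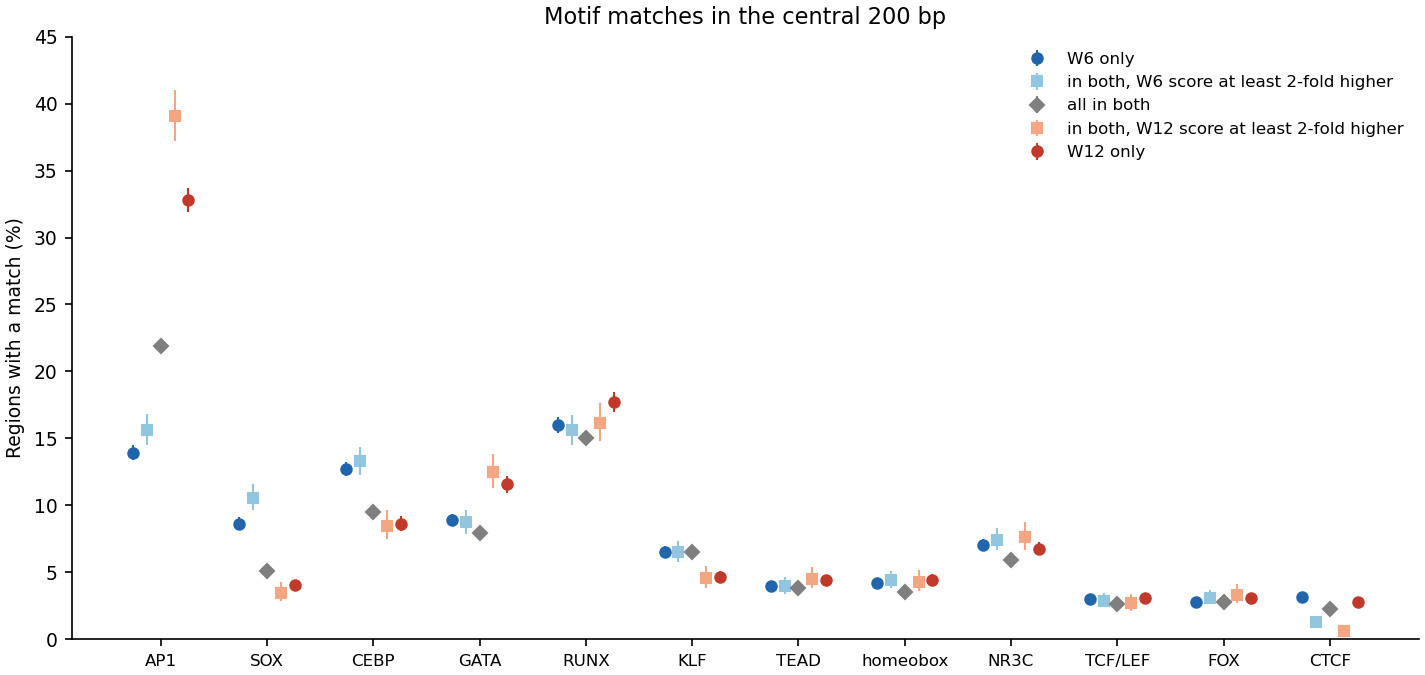
Share of regions (%, y axis) with a match to each factor's sequence in the central 200 bp (x axis), for W6-only regions, W12-only regions, all shared regions and shared regions with a score at least 2-fold higher at either week, with 95% Wilson intervals. AP1 runs from 13.9% in W6-only to 32.8% in W12-only regions, and SOX in the opposite order, from 8.64% to 4.05%.

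Single regions with the highest scores illustrate these classes. Among W6-only regions, those near Pip and in Glra2 were followed by chr12:104561965-104562507, with a score of 20.2, by an intronic region of Msh4, a meiotic mismatch repair gene, at chr3:153897346-153897889 (20.1), and by chr2:77951470-77951827 near Cwc22, a splicing factor gene (19.7). The region in Msh4 had no peak in any of the other 10 lists, whereas that near Cwc22 had scores of 11.8 at W2 and 3.26 at D0. Among W12-only regions, the one in an intron of Dennd1a at chr2:37817890-37818976, 42184 bp from the TSS of Crb2, stood apart, with a score of 174, a fold enrichment of 12.6 and no peak in any other list. Dennd1a encodes a factor of endocytic traffic, and Crb2 a Crumbs polarity protein. The next 2 were the repeated chr9 region and a region of the unplaced scaffold JH584304 with a score of 29.5. They were followed by chr6:47771735-47772125 (29.5), which had peaks in all 7 culture lists but in none at D0, W1 or W2, and by chr15:81480916-81481483 near Rbx1 (26.9), with scores of 16.6 at D0, 25.2 at W1 and 7.38 at W2.

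The 5 shared regions with the largest ratio in favour of W12 lay on 4 chromosomes. The promoter region of Ccl27a, a chemokine of keratinocytes, had scores of 23.8 (D0), 8.37 (W1), 7.006 (W2), 4.26 (W6) and, in the graft, 30.2. A region 338 bp from the TSS of the predicted gene Gm37752 and 4046 bp from that of Sprr2a3, a small proline-rich cornified envelope gene, had scores of 24.0, 9.38, 8.45, 3.92 and 26.8 in the same order. A region near Slc16a10, an aromatic amino acid transporter gene, gave 24.1, 17.4, 7.91, 3.58 and 24.5. These 3 regions were high at D0 and at W12 and lowest at W6. The region near Angptl7 had scores of 6.90 at D0 and 14.3 at W1 and no peak at W2, and the region at chr11:53820358-53820972 had 5.50 at D0, 3.58 at W6 and 24.9 at W12.

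The 5 shared regions with the largest ratio in favour of W6 had no peak at D0 or W1 and a peak at W2. The region near Morf4l1 had a score of 31.1 at W2, 27.3 at W6 and 3.20 at W12. A region 36755 bp from the nearest TSS, with Cd34, the surface marker of hair follicle bulge stem cells, as the nearest protein-coding gene, gave 32.6, 26.3 and 3.39. A region 1111 bp from the TSS of Gm8228 gave 50.6, 26.2 and 3.79, with the nearest protein-coding TSS, that of Gm11114, 335147 bp away. One in Ptprn2, a dense-core vesicle phosphatase gene, gave 18.1, 34.0 and 4.20. One 82711 bp from the TSS of Rab3gap2, the nearest protein-coding gene, gave 16.7, 26 and 3.39. The first 2 held a SOX match.

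Regions were next assigned to the protein-coding gene with the nearest TSS, which gives genes with large empty surroundings more regions and says nothing of the gene that a region acts on. Of 16433 genes with a region, 5048 had more W6-only and 3475 more W12-only regions, beside the shares of 17.0% and 12.1% over all regions. An excess of 10 or more W6-only regions was found for 44 genes and of 10 or more W12-only regions for 4. These gene counts were taken from the full lists only. The excess of W6-only regions in those lists was lost with lists of equal length (11789 W6-only and 11935 W12-only regions).

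Sox9 itself had the largest W6 excess, with 31 W6-only, 6 W12-only and 62 shared regions, spread over chr11:111978741-113165777. The scores of the W6-only regions ran from 3.26 to 11.1 with a median of 4.82, 10 of the 31 had a peak at W2 and 1 at D0. Of the 62 shared regions of Sox9, 9 were at least 2-fold higher at W6 and none at W12, beside 6.52% and 4.24% of all shared regions. The Sox9 promoter region at chr11:112782010-112783095 had a score of 13.8 at D0, 21.2 at W2, 15.9 at W6 and 10.3 at W12, and 792 of its 1086 bp lay in the first exon. A region in the third exon was shared (9.22 and 8.84), and a region over the second exon, at chr11:112783816-112784095, was W12-only with a score of 5.26 and no earlier peak. Exons can be carried by the transgene too, so reads from it and from the endogenous gene cannot be told apart in these 3 regions.

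The other genes with a large W6 excess were Btbd3 (21 W6-only, 3 W12-only), Auts2 (22 and 5), Camk1g (18 and 2), Trps1 (16 and 0), Bcl11a (18 and 3), Gm11146 (18 and 3) and Setbp1 (16 and 1). Trps1 encodes a GATA-type zinc finger repressor of the hair follicle, and its 16 W6-only regions scored 3.27 to 10.2. Bcl11a encodes a zinc finger repressor, Auts2 a partner of a Polycomb complex, and Btbd3 a BTB protein known from neurons. Of the 22 W6-only regions of Auts2, 18 had no peak at D0, W1 or W2, whereas 6 of the 18 of Camk1g, a calcium-dependent kinase gene, had a peak at D0.

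The genes with the largest W12 excess were Slc24a3 (18 W12-only, 1 W6-only), Rora (16 and 3), Sfi1 (10 and 0), Cln8 (10 and 0), A430005L14Rik (9 and 0), Igfbp3 (10 and 3), Foxn3 (11 and 4) and Ubash3b (10 and 3). Rora encodes an orphan nuclear receptor of the circadian clock, and all 16 of its W12-only regions were intronic. Of these 16, 14 had a peak at W1 and 11 at D0, but 2 at W2. Slc24a3, a sodium, potassium and calcium exchanger gene, had W12-only regions with scores of 3.01 to 20.3, of which 9 had a peak at D0 and 8 held an AP1 match. None of the 10 of Igfbp3, which encodes a binding protein of insulin-like growth factors, had a peak at W2, and 6 had one at D0. Sfi1 has near-identical copies in the genome, so its count is uncertain.

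Lists of genes were then read against the same background of 17.0% W6-only and 12.1% W12-only regions. Genes of HFSCs and the outer root sheath leaned to W6, with 79 W6-only (23.4%, 19.2 to 28.2) and 33 W12-only (9.79%, 7.06 to 13.4) of 337 regions. Sox9 supplied 31 of the 79, and without it the list gave 48 W6-only (20.2%, 15.6 to 25.7) and 27 W12-only (11.3%, 7.91 to 16.0) of 238 regions, with intervals that include the background. By gene body and 10 kb instead of the nearest TSS the whole list had 30 and 18. Sox9 was followed by Nfib with 13, Foxc1 with 9 and Tcf7l2 with 7, which also had 7 W12-only regions. Promoter regions of the 14 genes were split much as those of all protein-coding genes, of which 6499 were higher at W6 and 4900 at W12 among 11399 in both lists. In the list 8 were higher at W6, such as that of Nfib, a nuclear factor of HFSCs (11.7 and 7.09), and 6 higher at W12, such as those of Sox21 (36.1 and 44.2) and Lhx2 (12.9 and 15.3). Of the 225 shared regions of the list, 33 were at least 2-fold higher at W6 and 6 at W12, beside 6.52% and 4.24% of all shared regions, a split that itself depended on the scale. Not all members leaned that way, since Lgr5, a WNT co-receptor of active follicle stem cells, had 5 W12-only and no W6-only regions, and Nfatc1 had 5 and 1.

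The EpdSC list leaned to W12, with 23 W12-only (19.5%, 13.4 to 27.6) and 14 W6-only (11.9%, 7.20 to 18.9) of 118 regions. With scores of at least 5 required this turned, with 11 W12-only and 12 W6-only regions. Trp63, the gene of p63, had 7 W6-only and 5 W12-only regions, Itga6, the α6 integrin of the sort, 1 and 6, Itgb1 2 and 5, and Krt5, a basal keratin, 2 and 4. The promoter regions of Krt5 (12.9 at W6 and 20.7 at W12), Krt14 (13.2 and 21.2), Krt15 (5.49 and 11.5), Trp63 (10.2 and 16.5) and Col17a1 (6.65 and 9.21) had higher scores at W12. Those of Itga6 (19.2 and 10.5), Itgb1 (44.1 and 32.2) and, by little, Itgb4 (16.7 and 16.6) had lower ones. Of the 9 genes of the list, 8 had a promoter peak in both lists, with Ly6a as the exception. Epidermal transcription factors, Trp63 among them, were nearly even, with 54 W6-only and 51 W12-only of 395 regions (47 and 46 of 351 without Trp63), including Gata3 (13 and 10), Klf5 (9 and 10) and Klf4 (6 and 10).

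**Figure D5:**
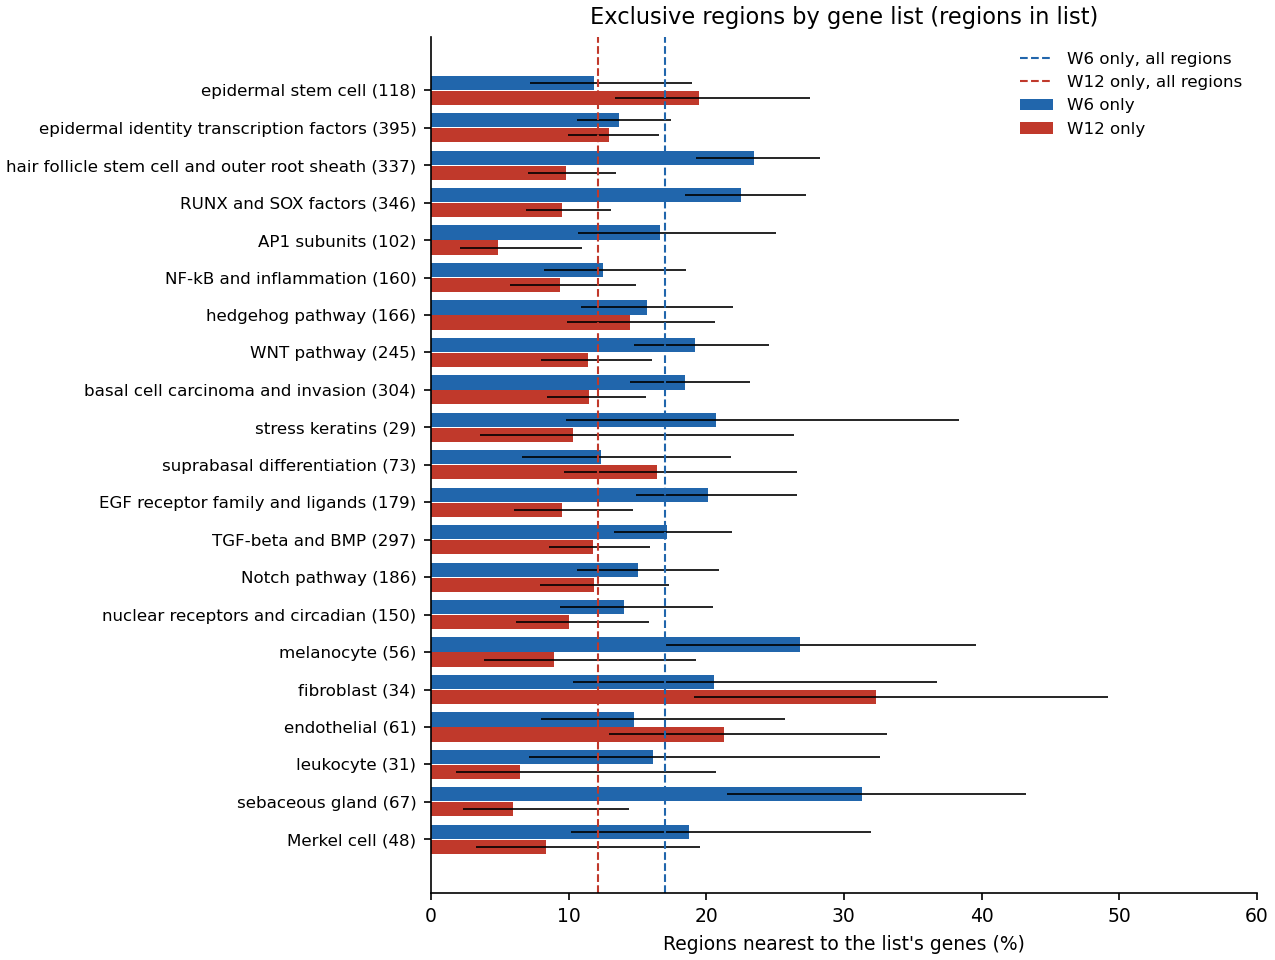
Share of regions (%, x axis) that were W6-only or W12-only among the regions nearest to the genes of each list (y axis, number of regions in parentheses), with 95% Wilson intervals and dashed lines at the shares over all regions, 17.0% and 12.1%. HFSC genes, with Sox9 included, stand to the right of the W6 line at 23.4%, EpdSC genes to the right of the W12 line at 19.5% (a lean that was lost with scores of at least 5), and most other lists have intervals that cross the line of their own colour.

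RUNX and SOX genes gave 78 W6-only and 33 W12-only of 346 regions, of which Sox9 supplied 31 and 6 and Sox4, a SOX factor of progenitor cells, 13 and 1, while Runx1, a RUNX factor of follicle stem cells, was nearly even with 8 and 7. Without Sox9 they gave 47 (19.03%, 14.6 to 24.4) and 27 of 247. Sox6 had 5 W6-only and 6 W12-only regions, among them an intronic region with a SOX match at chr7:115580394-115580926 that had a score of 16.4 at W6. The AP1 subunit genes themselves gave 17 W6-only and 5 W12-only of 102 regions, led by Fos (5 and 0), Fosl2 (3 and 2) and Batf (4 and 0). The promoter regions of Fos (14.7 at W6 and 20.02 at W12) and Fosl2 (27.6 and 34.9) had higher scores at W12, and that of Jun a lower one (30.4 and 26.7). In the list 6 promoter regions were higher at W12 and 2 at W6, beside the 4900 and 6499 over all protein-coding genes.

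The signalling lists lay near the background in their shares of exclusive regions. Hedgehog genes gave 26 W6-only and 24 W12-only of 166 regions, with Gas1 at 7 and 3, Gli3 at 4 and 6, and Shh, the ligand, at 4 and 4. Of the 116 shared hedgehog regions, 9 were at least 2-fold higher at W6, near the 6.52% of all shared regions, and none at W12, beside 4.24%. WNT genes gave 47 and 28 of 245, with Tcf7l2 at 7 and 7 and Fzd10, a receptor gene, at 6 and 3. The promoter regions of Axin2, a WNT feedback target, had scores of 23.4 at W6 and 11.2 at W12, and those of Wnt7b 13.8 and 4.64, while over the list 8 promoter regions were higher at W12 and 7 at W6. TGFβ and BMP genes gave 51 and 35 of 297, with Tgfbr2, the type II receptor gene, at 12 and 4, Smad2 at 8 and 3, and the ligand genes Bmp2 at 4 and 6 and Tgfb2 at 2 and 6. Notch genes gave 28 and 22 of 186, of which Jag1, a ligand gene, supplied 11 W6-only and no W12-only regions, Hes1, a target, 5 and 5, Dll1, another ligand gene, 3 and 5, and Rbpj, the nuclear effector, 0 and 4. Genes of the EGF receptor family and its ligands gave 36 and 17 of 179, led by Nrg1 (12 and 2) and Lrig1 (7 and 3), with Egfr itself at 3 and 5. Genes of nuclear receptors and the clock gave 21 and 15 of 150. Among shared regions, 15 of 126 of the EGF receptor list were at least 2-fold higher at W6 and 2 at W12. The counts were 15 and 3 of 136 for Notch, 12 and 2 of 170 for WNT and 19 and 12 of 211 for TGFβ and BMP genes. For nuclear receptors and the clock they were 5 and 6 of 114. Over all shared regions the shares were 6.52% and 4.24%, a split that itself depended on the scale.

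Genes of basal cell carcinoma and invasion gave 56 W6-only and 35 W12-only of 304 regions, led by Myc (17 and 11) and Zeb2 (12 and 5), the gene of a repressor of epithelial adhesion. NF-κB and inflammation genes gave 20 and 15 of 160. Stress keratins gave 6 and 3 of 29, and the promoter region of Krt16 had a score of 29.5 at W6 and 51.9 at W12, while that of Krt6a had 26.8 and 24.1. Suprabasal differentiation genes gave 9 and 12 of 73, of which Tgm3, a transglutaminase gene, supplied 7 of the 12.

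Markers of cells that the sort should remove were examined beside these lists. Promoter peaks were found for 2 of 8 melanocyte genes in both lists, 1 of 8 fibroblast genes in both lists, 1 of 7 endothelial genes in each list and 1 of 11 leukocyte genes at W6 against 2 at W12. Their summed promoter scores were 78.7 at W6 and 81.5 at W12 for melanocytes, 13.3 and 9.44 for fibroblasts, 6.28 and 3.20 for endothelium and 8.53 and 21.9 for leukocytes. Sebaceous gland genes had 3 of 7 promoter peaks in both lists (summed scores of 48.6 and 48.0), and Merkel cell genes 3 of 5 at W6 and 2 at W12 (43.7 and 30.1). Kit, Ptprc and Pecam1, the genes of 3 surface proteins of the sort, had no promoter peak in either list. Pdgfra, the gene of CD140a, had one in both (13.3 at W6 and 9.44 at W12). Counting all regions, melanocyte genes gave 15 W6-only (26.8%, 16.96 to 39.6) and 5 W12-only of 56 and leukocyte genes 5 and 2 of 31. Fibroblast genes gave 7 W6-only and 11 W12-only (32.4%, 19.1 to 49.2) of 34, with Thy1 supplying 6 and Dcn 4 of the 11. Endothelial genes gave 9 and 13 (21.3%, 12.9 to 33.1) of 61, with Cdh5 at 5 and 5. The W12-only intervals of both lists lay above the 12.1% of all regions. Merkel cell genes gave 9 and 4 of 48. Sebaceous gland genes, whose cells also belong to the epithelium, gave 21 W6-only (31.3%, 21.5 to 43.2) and 4 W12-only (5.97%, 2.35 to 14.4) of 67, with Far2 at 7 and 0, Mgst1 at 5 and 0, Plin2, a lipid droplet gene, at 4 and 0 and Elovl6 at 2 and 2. The part of such cells in the results was not tested.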

How the data were processed

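ATAC-seq libraries were made from sorted EpdSCs of 2 replicates at W6 and 2 at W12. According to the study's methods, the authors processed reads with PEPATAC against mm10, merged replicates and called peaks with MACS2. The submitters' processing notes list Bowtie2 2.2.9, SAMtools 1.9, Picard 2.3.0 and MACS2 2.1.1. The deposited lists give per peak a score, a fold enrichment (ratio) over background and a −log10 q. The deposited score is −log10 p scaled to the list's total, with a minimum of 3. The methods name a normalised peak call with that threshold, and the scaling was inferred from the values. Scores therefore depend on how many peaks a list holds and on depth, which is unknown. The score followed fold enrichment within each list (Spearman's rho 0.84 at W6 and 0.85 at W12, across peaks).

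Peaks were merged with pandas 2.3.3. The highest score per region was kept, and 2-fold was a fixed size. TSSs came from GENCODE M21, and sequences from the RefSeq copy of GRCm38, read with pysam 0.24.0. No peak ended beyond its chromosome. Merging was tested on simulated peaks. Named were the 5 highest-scoring exclusive regions of each week, the 5 largest ratios each way among scores of at least 10, the 8 genes with the largest excess each way, and up to 4 genes per list, by exclusive regions. Promoter scores of further list members were added after the values were seen. Members, lists and rules were chosen with earlier results of these data known. The alternatives varied the thresholds, list length, overlap, scaling, TSS distance, gene assignment and stretch scanned.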

Additional observations from a re-analysis of the deposited data

How the results depend on the processing

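No paired analysis was possible because each list pools its replicates, and no replicate could be left out for the same reason. The order of the W6-only and W12-only shares held for AP1, SOX, GATA, RUNX, C/EBP and KLF matches in all 6 alternatives each, for D0 and W2 peaks in all 3, and for TSS proximity in all 5. The log2 ratio of W12-only to W6-only counts was −0.49. It became 0.0178 with lists size-matched by score, 0.00729 by fold enrichment and 1.84 with a common minimum of −log10 q. The log2 ratio of 2-fold counts was −0.62 and became 0.0238 with scores divided by the shared median and 0.83 with fold enrichment in place of the score, an alternative added after the data were seen.

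With the common minimum of −log10 q, W6-only regions numbered 5225, W12-only 18695 and shared regions 2-fold higher at W12 1424. TSS-proximal shares became 10.6% (W6-only) and 9.69% (W12-only), D0 shares 18% and 41.2%, W2 shares 48.1% and 33.4%, the W6-only SOX share 10.8% and the W12-only AP1 share 29.6%. With scores of at least 5, 2-fold counts were 1276 (W12) and 1700 (W6), TSS-proximal shares 13.3% and 9.08%, D0 shares 33.3% and 55.6%, W2 shares 61.9% and 44.2%, AP1 shares 14.9% and 33.8%, and the EpdSC list had 11 W12-only regions, beside 12 W6-only ones. Size-matching by score gave W2 shares of 36.5% and 24.3%. All these cuts were made before merging, so their exclusive classes include shared regions that lost the peak of 1 list. By fold enrichment, 2-fold counts were 289 (W12) and 163 (W6). TSS shares were 28.5% and 27.3% within 5 kb, and 8.65% and 4.72% for protein-coding TSSs. Whole regions gave SOX shares of 12.4% and 7.53% and AP1 shares of 17.3% and 39.3%. These subsets were added after the data were seen. Regions over 1 kb from a TSS gave a W6-only SOX share of 9.23% and AP1 shares of 14.9% and 33.8%. Regions with no peak at D0, W1 and W2 gave SOX shares of 9.20% and 5.09% and AP1 shares of 18.9% and 41.6%. By gene body and 10 kb, HFSC genes had 30 W6-only and 18 W12-only regions. By nearest TSS but without Sox9, an alternative also added after the data were seen, they had 48 and 27. The causes were not tested.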

Other observations

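Promoters of interferon-stimulated and MHC genes were noticed among the largest differences after the values were seen, so their genes are given as a description with no test. The promoter region of H2-Q7 had a score of 5.33 at W6 and 32.2 at W12, that of Ifit1 3.26 and 14.6, that of Oas1g 3.92 and 16.5, and that of the MHC class II gene H2-Aa 3.58 and 13.9. Promoter regions of Lgals3bp (18.7), H2-Q6 (15.1), Oas1a (14.4) and Ifi47 (12) were W12-only. Among all protein-coding genes whose symbols begin with H2- or with one of the usual interferon gene roots (Ifi, Ifit, Oas, Isg, Irf, Gbp and a few single genes), 63 of 108 had a promoter region. Of these, 10 were W12-only and 2 W6-only, and of the 51 in both lists 9 were at least 2-fold higher at W12 and none at W6. Over all protein-coding genes, 260 promoter regions were W12-only and 779 W6-only, and 103 and 363 of 11399 shared ones were at least 2-fold higher at W12 and W6. Many members also had D0 peaks, with scores of 13.8 for H2-Q7 and 10.2 for Rsad2, whose promoter was W12-only at 11.2. Several are near-identical copies whose reads can be split. Of the 51 in both lists, 32 were higher at W12 and 19 at W6 (13 and 3 of the 16 MHC ones, 19 and 16 of the 35 interferon ones), beside 4900 and 6499 of 11399 over all protein-coding genes. Among those lower at W12, the scores of Mx1 were 8.75 at W6 and 4.93 at W12. Leukocyte promoter scores summed to 8.53 at W6 and 21.9 at W12, of which Cd68 alone gave 8.53 and 18.8 and 9 of the 11 genes had no promoter region, while all regions of the list were W6-only in 5 and W12-only in 2 cases. The part of such cells was not tested.

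In the other direction, the promoter regions of S100a8 (17.9 at W6 and 5.26 at W12) and S100a9 (16.3 and 4.20), which encode the calprotectin subunits of stressed epidermis, had lower scores at W12.

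Exclusive regions were also uneven along the genome. On chromosome X, 154 of 522 exclusive regions were W12-only (29.5%, 25.8 to 33.6), against 41.6% (41.0 to 42.2) over all chromosomes and 37.8% to 45.8% on single autosomes. In windows of 500 kb, 27 held 10 or more W6-only and at most 1 W12-only region, and 8 the reverse, among 4247 windows with a region. The window counts were taken from the full lists only, whose excess of W6-only regions depended on how the lists were cut. The window with the largest W6 excess, chr10:122500001-123000000, held 18 W6-only and 2 W12-only regions. The window with the largest W12 excess, chr2:145000001-145500000 at Slc24a3, held 16 W12-only and 1 W6-only region.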
